A study of Mus musculus with 30 samples.

Results

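The thrombospondins were described through their 5 mouse genes, Thbs1, Thbs2, Thbs3, Thbs4 and Comp, which were picked by symbol from 35972 genes shared by the RNA tables. All 5 passed the filter on low values in both RNA comparisons. In the chromatin lists, 12 of 16367 listed sites carried the name of a member in the authors' annotation. The cells were primary fibroblasts from mouse tail tendon, of wildtype genotype in all groups, grown with 10% serum and treated in medium with 0.1% serum. RNA was read in 3 libraries each of the solvent control DMSO, of 10 µM blebbistatin, which blocks non-muscle myosin II, and of 30 µM Y27632, a kinase inhibitor. ATAC libraries, which report open chromatin, covered the same 3 treatments with 3 libraries each. A further 12 genomic DNA libraries, 3 per group, had neither drug (DMSO), blebbistatin at 10 µM, doxycycline at 10 ng/mL, or both. The labels do not say what doxycycline induces in these wildtype cells, nor which assay these 12 libraries used. Ages, sexes, the number of animals, the treatment times and whether libraries came from separate cultures are not given, so p-values measure only the spread between these libraries. The 2 inhibitors were used at different doses.

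Thrombospondins are large secreted glycoproteins of the matrix around cells. Thbs1 and Thbs2 assemble as trimers and carry the type 1 repeats that give the wider repeat family its name, whereas Thbs3, Thbs4 and Comp assemble as pentamers without these repeats. Thbs1 binds CD47, CD36 and integrins and can activate latent TGF-beta. Thbs2 restrains vessel growth and affects collagen fibril assembly, while Comp and Thbs4 bind fibrillar collagens and are characteristic of tendon and other load-bearing tissue.

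The sequences shown are those that bear on TEAD, the DNA-binding partner of Yap and Taz, because the study was about these mechanically regulated cofactors. In the authors' table for blebbistatin against DMSO, a column of HOMER TEAD motif matches listed 1 match in a Thbs1 site and 1 in a Thbs2 site. The capitals mark the TEAD core GGAATG or its reverse complement CATTCC, each match is written as the table gives it, and the build is mm10.
Thbs1 site chr2:118127640-118128603, listed position 606, minus strand: gtgCATTCCt
Thbs2 site chr17:14730753-14730983, listed position 116, plus strand: aGGAATGcag
A HOMER match was listed for 603 of the 970 sites of that table, or 62.2%. A match in a member's site was therefore common among listed sites, and the other Thbs1 site of the table had none. The Thbs1 site with the match was 963 bases wide and the other 123. Median widths in that table were 268 bases for sites with a match and 229 for sites without.

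RefSeq promoter windows (GRCm38.p6, from 250 bases before the start site to 50 after) matched 3 of the 5 members, Thbs2, Thbs3 and Thbs4. The windows were searched on both strands for the TEAD core GGAATG, the AP-1 motif TGANTCA and the CArG box of serum response factor. The 250 bases before the start are shown for Thbs2, whose RNA rose with both inhibitors, and for Thbs4, the only 1 of the 3 windows with a match. Both genes lie on the minus strand, and capitals mark the TEAD core.
Thbs2 chr17:14694263-14694512: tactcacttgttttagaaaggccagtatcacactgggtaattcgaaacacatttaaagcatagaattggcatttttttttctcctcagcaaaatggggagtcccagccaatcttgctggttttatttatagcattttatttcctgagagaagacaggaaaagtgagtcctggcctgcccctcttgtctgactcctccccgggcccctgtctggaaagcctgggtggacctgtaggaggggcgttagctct
Thbs4 chr13:92794819-92795068: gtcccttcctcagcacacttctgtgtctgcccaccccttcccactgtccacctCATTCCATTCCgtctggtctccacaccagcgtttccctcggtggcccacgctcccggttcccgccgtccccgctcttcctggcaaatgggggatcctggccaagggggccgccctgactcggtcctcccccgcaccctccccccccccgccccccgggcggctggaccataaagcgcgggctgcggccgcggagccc
The Thbs4 window held 2 TEAD cores, which begin 197 and 192 bases before the start and share 1 base. At least 1 TEAD core was present in 14.7% of 32851 promoter windows of this length, at least 2 in 1.36%, an AP-1 motif in 7.81% and a CArG box in 1.63%. None of these 3 motifs matched in the Thbs2 and Thbs3 windows, and no listed site fell on the start of Thbs2, Thbs3 or Thbs4.

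RNA depth was 23375386 to 37061737 reads in genes per library, and no replicate pair was as alike as counting noise alone would give. Tendon fibroblast markers were present throughout: Tnmd averaged 951 and Mkx 998 normalised counts in DMSO, while the tendon transcription factor Scx averaged 67.2. All 10 tendon fibroblast markers were detected, and their summed level was 835330 to 893368 in DMSO, 792336 to 865716 with blebbistatin and 876451 to 921979 with Y27632. Col1a1, Col1a2 and Col3a1, averaging 299600, 248200 and 242700 in DMSO, made up most of this sum. Single markers moved. In the order DMSO, blebbistatin and Y27632, Pdgfra averaged 9331, 14000 and 14070, Fmod 2735, 3256 and 4310, and Thy1 7860, 6767 and 8252. The 5 leukocyte and macrophage markers were also detected in every group, with summed levels of 1719 to 1938 in DMSO, 2439 to 2826 with blebbistatin and 2360 to 2767 with Y27632, so they moved with both treatments. Among markers of cartilage, Acan was at 0 in DMSO, and of skeletal muscle, Myod1 and Ckm were at 0 in all 9 libraries. Summed keratinocyte markers lay between 71.1 and 90.9 in all libraries.

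With blebbistatin, Thbs1 was the member that changed most. It fell 4.95-fold in that comparison and by a smaller amount with Y27632, while Thbs2 and Comp rose with both inhibitors. Thbs4 rose slightly with Y27632, and Thbs3 passed the threshold in neither comparison. With blebbistatin, 3 of the 5 members passed an adjusted p of 0.05 (limma, Benjamini-Hochberg over all genes tested), against 53.0% of the 14882 genes tested. With Y27632, 4 of the 5 members passed, against 35.9% of 14833 genes. With so many genes called, the count of members called says little about the family, and the sizes of the changes are what distinguish its members. These comparisons share their DMSO libraries, which each table scaled separately, so values are set side by side for each comparison. All levels are counts that were not divided by transcript length, so levels of the members are compared within a gene and never between genes. The marker sums, and the part of a gene in them, rest on the same undivided counts.

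**Figure D1:**
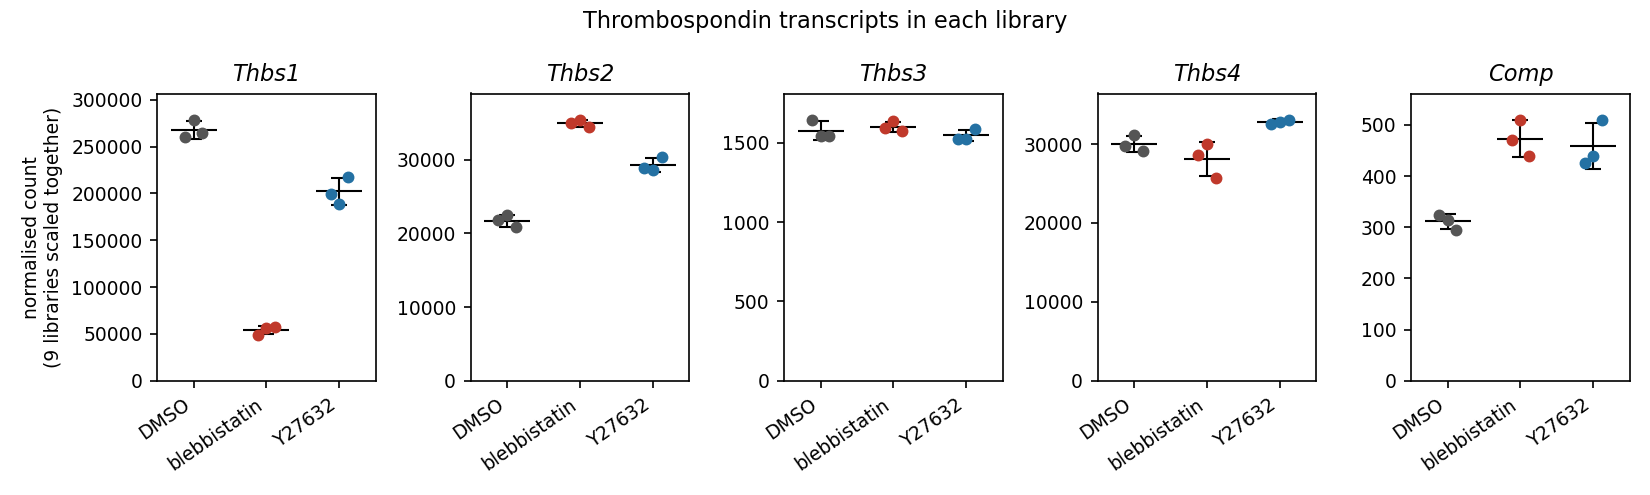
Normalised counts of the 5 thrombospondin genes (y axis, each from 0 on its own scale) in the 9 RNA libraries, scaled together; points are libraries, and bars give the mean ± SD of 3 libraries. The 3 blebbistatin libraries of Thbs1 lie at 49112 to 57289, below all other libraries, while Thbs2 and Comp are lowest in the 3 DMSO libraries.

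Thbs1, the trimeric thrombospondin that activates latent TGF-beta, lies at chr2:118111876-118127133. Its normalised counts were 246916, 265062 and 251542 in the DMSO libraries and 46605, 53697 and 54287 with blebbistatin. The groups did not overlap, and the highest blebbistatin library was far below the lowest DMSO library. The mean fell from 254507 ± 9429 to 51530 ± 4275 (SD, n = 3 each), a log2 change of -2.31 with a limma SE of 0.05 and an adjusted p of 1.15e-11. This was the 35th lowest log2 change of the 14882 genes tested; 66 genes, or 0.443%, were called with a log2 change of -2 or lower. Thbs1 took 0.939% ± 0.0326 of the reads in genes in DMSO and 0.201% ± 0.0167 with blebbistatin (SD, n = 3). In bulk libraries, fewer cells that express a gene and less RNA per cell cannot be told apart.

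Thbs1 is also made by endothelium and platelets, so their markers were set beside it. The 5 endothelial markers summed to 3335 to 3398 in DMSO, 2114 to 2376 with blebbistatin and 2989 to 3192 with Y27632, which is lower in every treated library. Tek made up most of the sum, averaging 3274, 2123 and 2961. The other 4 were low and did not follow it: in the same order Cdh5 averaged 70.5, 87.0 and 88.9, Kdr 15.3, 23.4 and 20.2, Pecam1 6.06, 8.21 and 9.55, and Emcn 0, 0.977 and 1.37. The 5 platelet and megakaryocyte markers summed to 847 to 944, 864 to 897 and 814 to 906, with overlap between the groups, but single markers separated. Pf4 was at 182 to 212 in DMSO, 275 to 324 with blebbistatin and 270 to 350 with Y27632, whereas Itga2b was at 593 to 641, 500 to 521 and 420 to 430. The 5 smooth muscle and pericyte markers summed to 231 to 257 in DMSO, 190 to 228 with blebbistatin and 221 to 247 with Y27632, lower than DMSO in every blebbistatin library. In the order DMSO, blebbistatin and Y27632, Rgs5 averaged 99.0, 67.9 and 82.9 and Cnn1 55.9, 36.8 and 33.0, whereas Mcam averaged 61.4, 75.2 and 89.5. The part of these cell types in the Thbs1 values was not tested.

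In the Y27632 table, Thbs1 was at 256695, 275170 and 261401 normalised counts in DMSO and at 197070, 186957 and 215417 with the inhibitor. All 3 treated libraries were below all 3 controls. The log2 change was -0.41 with an SE of 0.05 (limma, adjusted p = 4.15e-05), a mean of 199815 ± 14427 against 264422 ± 9601 (SD, n = 3). Its share of the reads in genes was 0.713% ± 0.0455 with Y27632. With the 9 libraries fitted together, Thbs1 was 3.7-fold lower with blebbistatin than with Y27632, a log2 difference of -1.89 (edgeR quasi-likelihood test, adjusted p = 8.27e-12). The 95% interval of that difference, from limma on the same 9 libraries, ran from -2.02 to -1.77. In this direct comparison 3 of the 5 members passed, against 52.4% of 15262 genes.

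Gm13986, a non-coding gene whose RefSeq span on chromosome 2 (117857291 to 118111202) ends just before the Thbs1 start, was looked at after its values were seen. It had 69, 49 and 48 reads in DMSO, 25, 28 and 25 with blebbistatin and 45, 39 and 34 with Y27632. Scaled for depth, neither treated group overlapped its controls. The log2 change was -1.26 with blebbistatin (SE 0.19, limma adjusted p = 0.000117) and -0.80 with Y27632 (SE 0.17, limma adjusted p = 0.00284). Between the treatments the difference of -0.47 did not pass (edgeR adjusted p = 0.0569, and 0.0401 by limma on the 9 libraries). The RefSeq span of Gm13986 does not overlap that of Thbs1, but overlaps those of 4930412B13Rik, Gm18846 and Gm25308. The use of strand in the counting is not stated, so reads of a gene and of a transcript on the other strand cannot be told apart where they overlap.

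Thbs2, the other trimeric member, moved in the opposite direction to Thbs1. At chr17:14665500-14694262, it gave 20741, 21378 and 19826 normalised counts in DMSO and 33203, 33659 and 32688 with blebbistatin. All blebbistatin libraries were above all controls. The mean rose from 20648 ± 780 to 33184 ± 486 (SD, n = 3), a 1.61-fold change with a log2 change of 0.69 and an SE of 0.03 (limma, adjusted p = 4.97e-09). With Y27632, the values were 21562, 22193 and 20603 in DMSO against 28489, 28342 and 30035, again without overlap. That log2 change was 0.43 with an SE of 0.04 (limma, adjusted p = 1.04e-06). Thbs2 was higher with blebbistatin than with Y27632 by 0.26 on the log2 scale (edgeR adjusted p = 8.91e-06), with a limma interval from 0.18 to 0.33.

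Comp, cartilage oligomeric matrix protein, is a pentameric member that binds collagen in tendon and cartilage; its gene lies at chr8:70373548-70382066. It was covered by 244 to 589 reads per library. In DMSO it was at 308, 299 and 280 normalised counts, and with blebbistatin at 446, 484 and 416. The groups did not overlap, and the log2 change was 0.60 with an SE of 0.08 (limma, adjusted p = 3.04e-05), or 1.51-fold. With Y27632 it was at 421, 435 and 504 against 320, 310 and 291 in DMSO, a log2 change of 0.56 with an SE of 0.08 (limma, adjusted p = 0.000138). The blebbistatin and Y27632 libraries of Comp overlapped, and the log2 difference of 0.06 between them did not pass (edgeR adjusted p = 0.55). Its 95% interval from limma ran from -0.13 to 0.22, and its sign turned when blebbistatin library 2 (-0.01) or Y27632 library 1 (0.00) was left out. The annotated span of Comp overlaps the non-coding gene Gm51533, so part of its reads could belong to that gene.

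The other tissue markers give the surroundings of the Comp and Thbs2 values. The 5 cartilage markers summed to 217 to 266 in DMSO, 308 to 314 with blebbistatin and 295 to 330 with Y27632, which is higher in every treated library. Sox9, a chondrocyte and tendon progenitor factor, made up most of this, at 144 ± 16.9, 210 ± 14.7 and 205 ± 13.9 (SD, n = 3). Col2a1 averaged 15.2, 18.1 and 24.2 and Acan 0, 2.9 and 0.91, so the cartilage collagen Col2a1 was low but detected and aggrecan was at or near 0. Col10a1 averaged 72.9, 76.9 and 71.0 and Matn3 5.19, 4.15 and 6.09, with overlap between the groups for both. The part that these markers, or the leukocyte and macrophage markers above, have in the Thbs2 and Comp values was not tested.

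Thbs4, a pentameric member of tendon and muscle matrix that also binds Atf6 in the endoplasmic reticulum, lies at chr13:92751586-92794818. Its normalised counts were 28258, 29567 and 27708 in DMSO and 27125, 28448 and 24342 with blebbistatin. These groups overlapped, with blebbistatin library 3 the lowest. The log2 change of -0.10 (SE 0.05, 95% interval -0.21 to 0.01) did not pass (limma, adjusted p = 0.109). It was -0.15 and passed (limma adjusted p = 0.0132) when blebbistatin library 2 was left out, and was -0.04 when library 3 was left out. With the replicate number as a block, the same change of -0.10 passed (limma adjusted p = 0.0346). With Y27632, Thbs4 was at 32109, 32477 and 32710 against 29377, 30695 and 28794 in DMSO, without overlap. That rise was 1.1-fold, a log2 change of 0.13 with an SE of 0.03 (limma, adjusted p = 0.00561). Thbs4 was lower with blebbistatin than with Y27632 by a log2 difference of -0.22 (edgeR adjusted p = 0.00101), so its response differed between the inhibitors.

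Thbs3, the other pentameric member, lies at chr3:89215180-89226841. It was at 1565, 1465 and 1466 normalised counts in DMSO and at 1510, 1554 and 1491 with blebbistatin. In the Y27632 table it was at 1627, 1521 and 1523 in DMSO and at 1509, 1510 and 1568 with the inhibitor. Treated and control libraries overlapped in both tables. The log2 changes were 0.02 with blebbistatin (95% interval -0.07 to 0.11, limma adjusted p = 0.726) and -0.03 with Y27632 (-0.12 to 0.06, limma adjusted p = 0.666). In percent, the intervals ran from -4.87% to 8.07% with blebbistatin and from -7.66% to 4.54% with Y27632. Between the inhibitors the log2 difference of 0.06 did not pass (edgeR adjusted p = 0.235, limma interval -0.04 to 0.13). The annotated 3′ end of Thbs3 overlaps the non-coding gene LOC115489723.

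**Figure D2:**
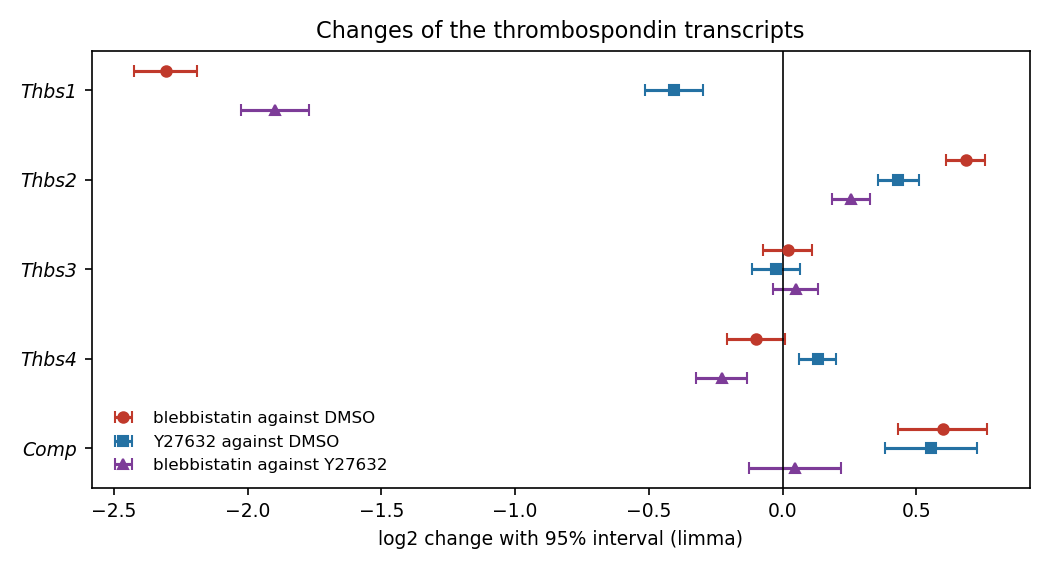
Log2 change (x axis, limma estimates with 95% intervals) of each thrombospondin gene for blebbistatin against DMSO, Y27632 against DMSO and blebbistatin against Y27632, the last from the 9 libraries scaled together. Thbs1 lies at -2.31 and -0.41 against DMSO, Thbs2 at 0.69 and 0.43, and all 3 intervals of Thbs3 cross 0.

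The genes whose levels across the 9 libraries were most like each member's were ranked among 11446 genes with a mean of at least 100. The 9 points share their treatment groups, so the coefficients mostly describe how a gene ordered the 3 groups. For Thbs1 they included a gene that the files list as 11-Sep, a symbol turned into a date, with Pearson r = 0.9984, and Oxr1 with r = 0.998, which changed by -1.23 with blebbistatin and -0.20 with Y27632 on the log2 scale. For Thbs2 they were the growth factor receptor gene Egfr, the matrix gene Spon2 and the chondroitin sulfotransferase gene Chst15, with r of 0.9953, 0.9953 and 0.9952. For Comp they were Fcgrt, Hps4 and Ankrd46, with r from 0.9757 to 0.9822. Thbs4 was most like the imprinted non-coding RNA H19, with r = 0.975, which changed by -0.50 with blebbistatin and 0.54 with Y27632. Eif6 and Obsl1 followed, with r = 0.9577 and 0.9531. Thbs3, whose groups did not separate, was most like Cby1, Fam98c and Tmem180, with r from 0.9167 to 0.9757.

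Receptors and other cell-associated binding proteins of thrombospondins changed in both directions. Of 18 genes, all tested, 5 rose and 7 fell with blebbistatin, with a median log2 change of -0.04 (0.04 when libraries were scaled by total reads alone). Over all tested genes, 26.1% were called higher and 26.9% lower, with a median of 0.00. Over the alternatives of the closing section, 4 to 7 rose and 7 to 8 fell. The Itga4 rise of 0.51 (limma adjusted p = 0.0251) did not pass with DESeq2 (adjusted p = 0.0944). Itgb3, the beta-3 integrin chain of the vitronectin receptor that binds Thbs1, rose from 1730 ± 41.9 to 3253 ± 157 (SD, n = 3), a log2 change of 0.91 (limma adjusted p = 3.04e-09). Sirpa, which like Thbs1 binds CD47, rose by 0.83 (limma adjusted p = 9.15e-10). The integrin alpha chains Itga3 and Itga7 fell by 0.80 and 0.60 on the log2 scale (limma adjusted p = 1.34e-05 and 6.65e-06).

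With Y27632, 7 of the 18 receptor genes rose and 3 fell, with a median of -0.03, where 18.1% of all tested genes were called higher and 17.8% lower. Without DMSO library 3, 5 fell, with Lrp1 and Cacna2d1 added. Itga4 rose from 57.4 ± 10.7 to 113.6 ± 5.24 normalised counts (log2 change 0.99, limma adjusted p = 0.000297). Cd36, the scavenger receptor bound by the type 1 repeats of Thbs1 and Thbs2, rose from 1296 ± 77.5 to 2168 ± 157 (0.74, limma adjusted p = 5.2e-07). Itgav, the alpha-v integrin chain, fell by 0.26 (limma adjusted p = 3.4e-05), and Itga3 was at -0.21 without passing (limma adjusted p = 0.117). Itga7 was lower with blebbistatin than with Y27632 by a log2 difference of -1.09 (edgeR adjusted p = 1.94e-09). The CD47 gene itself passed in neither comparison, at -0.06 and -0.01 for Cd47 (limma adjusted p = 0.283 and 0.863), although without blebbistatin library 2 it passed at -0.12 (limma adjusted p = 0.0222). Cd36, Sirpa, Itgb3 and Itga4 are also expressed by leukocytes or platelets, and the summed leukocyte and macrophage markers were higher in every treated library; the part of such cells in these rises was not tested.

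Of 21 growth factor and matrix partners, 17 were tested. With blebbistatin 7 rose and 5 fell, with a median of 0.06, against 26.1% of all tested genes called higher and 26.9% lower. Col1a2, which fell by 0.12 (limma adjusted p = 0.0314), was not stable. It did not pass without DMSO library 1 or 2 or blebbistatin library 1 or 3 (limma adjusted p = 0.102 to 0.12). Tgfb2, a TGF-beta isoform, rose from 368 ± 31.2 to 824 ± 70.6 (SD, n = 3; log2 change 1.16, limma adjusted p = 9.48e-08). Mmp2, a gelatinase whose clearance involves Thbs2, rose by 0.92 (limma adjusted p = 7.83e-11). Vegfa, the vessel growth factor that Thbs1 binds, fell by 0.68, and the fibril-associated collagen gene Col12a1 fell by 0.40 (limma adjusted p = 1.31e-07 and 0.000365). With Y27632, 8 of the 17 rose and 2 fell, with a median of 0.18, against 18.1% of all tested genes called higher and 17.8% lower. Matn4, a matrilin, rose by 0.93 and Fgf2 by 0.50 (limma adjusted p = 0.000307 and 0.0012), while Vegfa fell by 0.18 and Ltbp1, the latent TGF-beta binding protein, fell by 0.15 (limma adjusted p = 0.00818 and 0.011). Without DMSO library 2, Ltbp1 did not pass (limma adjusted p = 0.0586) and 1 gene fell, and without DMSO library 3, 4 fell, with Col1a1 and Col12a1 added.

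The 5 proteases that cleave thrombospondins were all tested. Adamts1, which cleaves Thbs1 and Thbs2, fell from 11730 ± 381 to 3866 ± 114 with blebbistatin (SD, n = 3; log2 change -1.60, limma adjusted p = 7.1e-12). Adamts7, a Comp-degrading protease, rose by 0.68 (limma adjusted p = 9.41e-09). Htra1 rose by 0.11 and Adamts12 fell by 0.33 (limma adjusted p = 0.0348 and 0.000193), so 2 rose and 2 fell with blebbistatin. Over all tested genes, 26.1% were called higher and 26.9% lower. The Htra1 call was lost without DMSO library 2 or 3 or blebbistatin library 1 or 2 (limma adjusted p = 0.0536 to 0.143) and with DESeq2 (adjusted p = 0.0538), which leaves 1 that rose. With Y27632, 2 rose and 3 fell, against 18.1% of all tested genes called higher and 17.8% lower. Adamts4 fell from 395 ± 30.6 to 187 ± 11.9 (log2 change -1.07, limma adjusted p = 8.08e-07) and Adamts12 by 0.25 (limma adjusted p = 0.00142), while Adamts7 rose by 0.34 and Htra1 by 0.13 (limma adjusted p = 1.75e-05 and 0.01). Without Y27632 library 3 Htra1 did not pass (limma adjusted p = 0.0507), which again leaves 1 that rose. Adamts4 was higher with blebbistatin than with Y27632 by 1.19, and Adamts1 differed by -1.39 (edgeR adjusted p = 4.33e-07 and 1.24e-11).

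Other genes with thrombospondin type 1 repeats did not move as a block with Thbs1 or Thbs2. Of 31 genes, 23 were tested. With blebbistatin 5 rose and 10 fell, with a median of -0.19, against 26.1% of all tested genes called higher and 26.9% lower. Over the alternatives of the closing section, 8 to 10 fell. Spon1, at -0.29 (limma adjusted p = 0.0429), did not pass with DESeq2 (adjusted p = 0.174). It also did not pass when any blebbistatin library was left out (limma adjusted p = 0.0715 to 0.102). With Y27632, 7 rose and 5 fell, with a median of -0.03, against 18.1% of all tested genes called higher and 17.8% lower. Spon2, a secreted spondin, rose by 1.27 with blebbistatin and by 0.79 with Y27632 (limma adjusted p = 3.65e-10 and 1.59e-08). Rspo3, an R-spondin that enhances Wnt signalling, fell from 2524 ± 64.8 to 851 ± 116 with blebbistatin (SD, n = 3; log2 change -1.58) and by 0.53 with Y27632 (limma adjusted p = 4.72e-09 and 1.85e-07). With blebbistatin, Adamtsl5 rose by 0.69 and Adamtsl1 fell by 1.03 (limma adjusted p = 1.05e-07 and 3.73e-08). With Y27632, Ism1 rose by 0.80 and Thsd4 fell by 0.75 (limma adjusted p = 0.00325 and 0.000728).

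Genes of endoplasmic reticulum folding, which serve the secretion of large glycoproteins such as these, shifted down. Of 15 genes, 14 fell and none rose with blebbistatin, with a median of -0.55, against 26.9% of all tested genes called lower and 26.1% higher. With Y27632, 14 fell and none rose, with a median of -0.23, against 17.8% of all tested genes called lower and 18.1% higher. Hspa5, which encodes the chaperone BiP, fell from 26118 ± 1470 to 11906 ± 83.2 with blebbistatin (SD, n = 3; log2 change -1.13, limma adjusted p = 2.46e-10) and by 0.68 with Y27632 (limma adjusted p = 4.41e-08). Manf, a secreted factor of the unfolded protein response, fell by 0.88 with blebbistatin, and the chaperone gene Hyou1 by 0.50 with Y27632 (limma adjusted p = 6.92e-08 and 1.47e-07). The smallest changes were those of Atf6, which fell by 0.18, and Sdf2l1, at -0.18 without passing (limma adjusted p = 0.00129 and 0.0885), with blebbistatin. With libraries scaled by total reads alone, Atf6 did not pass (limma adjusted p = 0.054), and without blebbistatin library 2, Sdf2l1 passed (limma adjusted p = 0.012). With Y27632 they were those of Syvn1, which fell by 0.12, and Sel1l, at 0.01 without passing (limma adjusted p = 0.0155 and 0.809). Syvn1 did not pass without DMSO library 2 or Y27632 library 2 (limma adjusted p = 0.0528 and 0.0582).

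**Figure D3:**
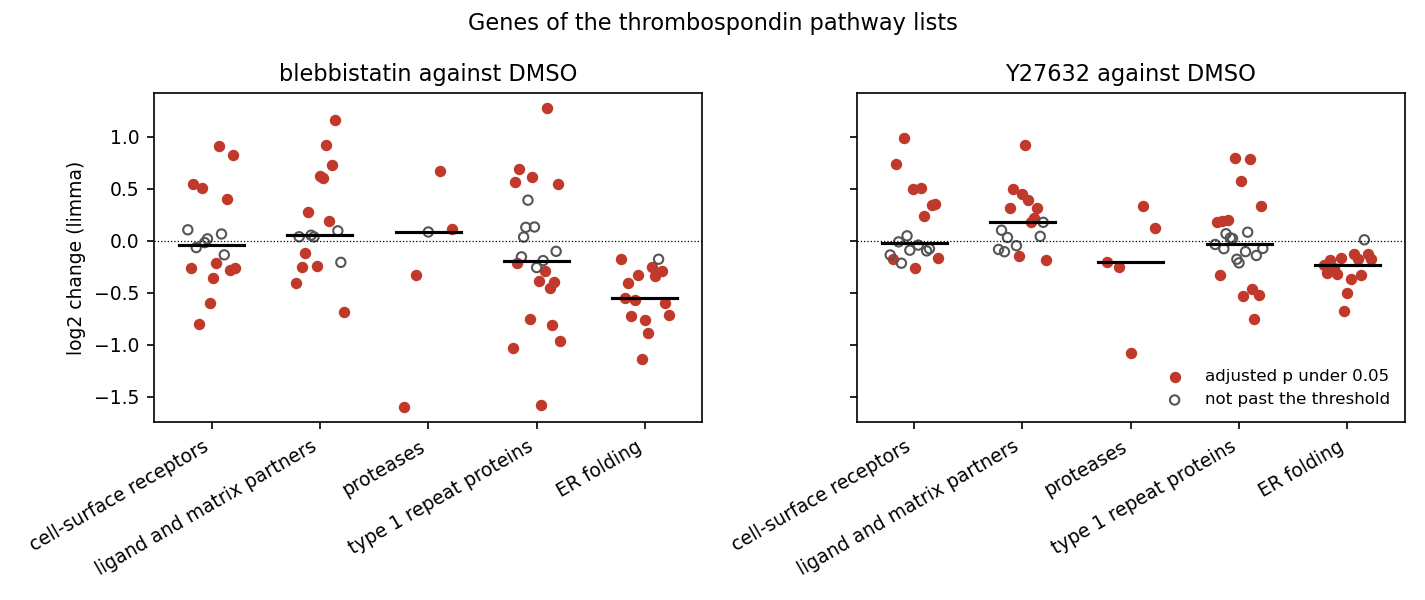
Log2 change (y axis, limma) of each tested gene of the 5 lists for blebbistatin against DMSO and Y27632 against DMSO; filled points passed an adjusted p of 0.05, open points did not, and black bars mark the list medians. The endoplasmic reticulum list lies below 0 except for 1 gene with Y27632, with medians of -0.55 and -0.23, whereas the other lists spread to both sides.

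Sites named for Thbs1 were lower in the lists of blebbistatin against DMSO, Y27632 against DMSO and blebbistatin without doxycycline. Its RNA was lower with both inhibitors too, but the libraries of the last list have no RNA libraries of their own. These sites lay past the 3′ end of the gene. The last list also held lower sites on the other side of the gene, named for Gm13986. The site values are the authors' log2 group means, log2 folds and false discovery rates (FDR), with no values per library, so no SD or test could be computed here. Of the 12 sites named for members, 8 were named for Thbs1 and 4 for Thbs2, and none for Thbs3, Thbs4 or Comp. The lists hold only sites that passed the authors' limits. In the lists from the 12 libraries with or without doxycycline, these included an absolute log2 fold of at least 1 besides the FDR. A site outside a list may therefore still have changed.

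In the authors' deposited table for blebbistatin against DMSO, 2 of 970 sites were named for Thbs1, both lower. Lower sites made up 1.52% of about 62847 tested sites, a total worked out from the FDR, rank and p-value columns, and 98.2% of the listed ones, so a lower direction was the rule in that list. The site at chr2:118127640-118128603 begins 507 bases past the end of the gene. Its log2 mean was 9.51 in DMSO and 7.41 with blebbistatin, a log2 fold of -2.10 (FDR 0.00687). Both its log2 mean in DMSO and its width ranked 2 among the 970 sites. The site at chr2:118129167-118129290, which begins 2034 bases past the end, was at 7.19 in DMSO and 4.62 with blebbistatin. Its log2 fold of -2.57 (FDR 0.000242) was the 6th lowest of the list.

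In the deposited table for Y27632, 3 of 207 sites were named for Thbs1, all lower, where lower sites were 0.285% of about 61812 tested and 85.0% of the listed ones. Only 2 of the 191 genes named in that list, Thbs1 included, had 3 or more sites. The site at chr2:118127640-118128603 recurred with the same ends, at 9.42 in DMSO and 8.03 with Y27632, a log2 fold of -1.39 (FDR 0.0321). It had the highest log2 mean in DMSO and the greatest width of the 207 sites. The site at chr2:118129167-118129290 also recurred, at a log2 fold of -1.64 (FDR 0.00465). The remaining site, at chr2:118127426-118127586, had a log2 fold of -1.50 (FDR 0.00271). The Y27632 and blebbistatin lists share their DMSO libraries, so these are not independent measurements of the reference.

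The list for blebbistatin without doxycycline comes from other libraries. In that deposited table the lowest p-value of all 1231 sites belonged to a Thbs1 site at chr2:118127383-118128711. Its log2 mean was 10.2 with neither drug and 8.6 with blebbistatin, a log2 fold of -1.60 (FDR 2.29e-10). It also had the highest log2 mean with neither drug and was the widest site of the list, and it contains the sites at 118127426-118127586 and 118127640-118128603 of the ATAC lists. Wide sites gather more reads, and the means were not divided by width. A second site, at chr2:118159167-118159675, was lower by a log2 fold of -1.03 (FDR 0.0114). Lower sites were 1.77% of about 68975 tested and 99.0% of the listed ones.

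With doxycycline alone, the 1 listed site named for Thbs1 was at the start of the gene. In the deposited table for doxycycline without blebbistatin, the site at chr2:118111844-118112246, centred 169 bases from the start, rose from a log2 mean of 7.98 to 9.26. That is a log2 fold of 1.28 (FDR 8.43e-08). The authors' annotation names Thbs1 for this site, but labels it as the promoter of the transcript that it gives for Gm13986 sites. Higher sites were 8.97% of about 81360 tested and 95.8% of the 7613 listed. The reference column of this table is headed as the blebbistatin group without doxycycline. At 13 sites shared with another list its values differed from the group with neither drug by a mean of -0.13 (SD 0.00439 over sites), and from the group in its header by 1.12 (SD 0.184 over sites), so it was read as the group with neither drug. No site was named for Thbs1 among the 6346 sites of the deposited table for blebbistatin with doxycycline. The sites of that table reached rank 47795 by p-value, and their smallest absolute log2 fold was 1.0. A Thbs1 site with a smaller fold would not be listed there.

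Thbs2 had 4 listed sites, all lower and all before its start, between -6208 and -41422 bases from it. In the deposited table for blebbistatin against DMSO, the site at chr17:14730753-14730983 was at 6.39 in DMSO and 4.92 with blebbistatin, a log2 fold of -1.48 (FDR 0.0392). The RNA of Thbs2 rose in that treatment, so the site and the RNA moved in opposite directions. Lower sites were 1.52% of those tested and 98.2% of the listed ones, so a lower direction was the rule in that list. With doxycycline alone, the deposited table gave a log2 fold of -1.32 (FDR 0.00063) for the site at chr17:14700360-14700579. Lower sites were 0.388% of those tested and 4.15% of the listed ones there. With blebbistatin with doxycycline, the deposited table listed the sites at chr17:14718450-14718574 and chr17:14735568-14735799, at log2 folds of -1.16 (FDR 0.00155) and -1.05 (FDR 3.12e-05). Lower sites were 8.73% of about 72539 tested and 99.8% of the listed ones, so a lower direction was again the rule. None of the 4 overlapped another. The annotation names the nearest gene start, and no contact between the listed sites and Thbs1 or Thbs2 was measured.

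**Figure D4:**
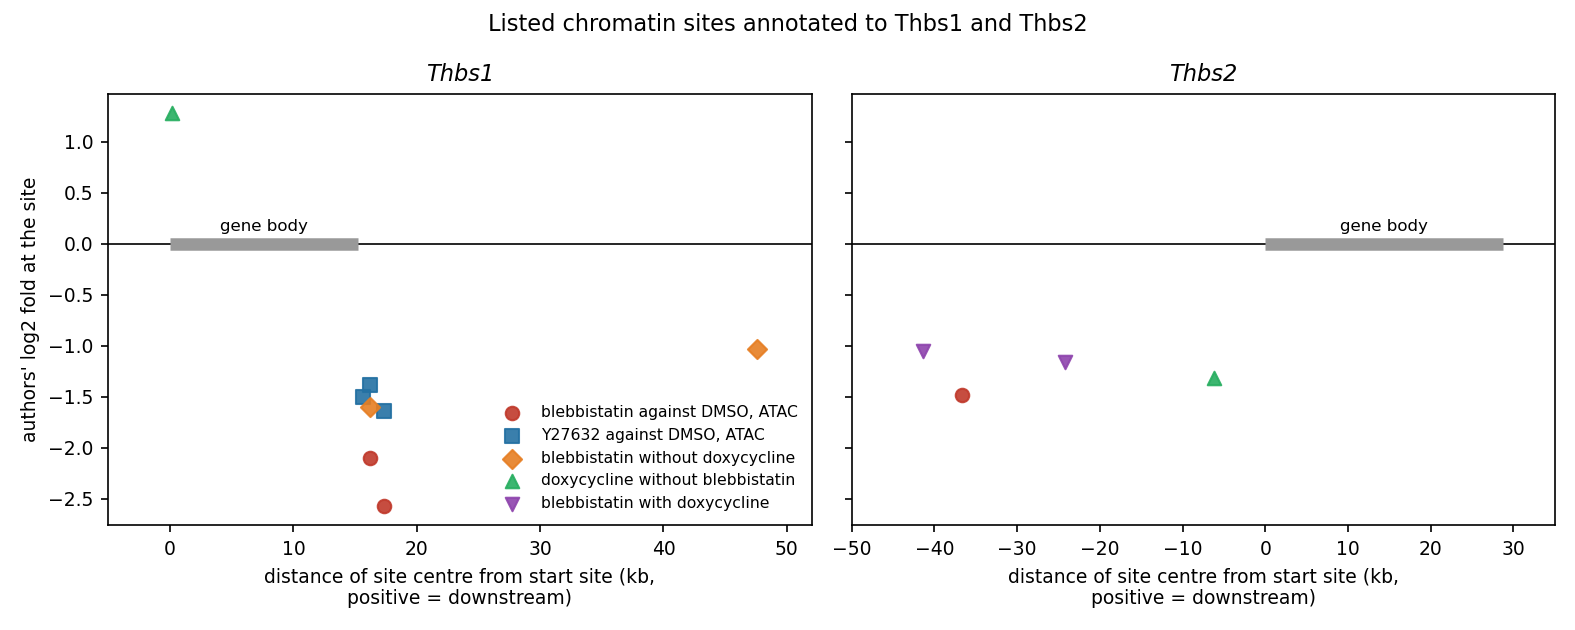
Authors' log2 fold (y axis) of the 12 listed sites against the distance of the site centre from the start of Thbs1 or Thbs2 (x axis, kb, positive downstream), with the gene as a grey bar and a marker per list. The Thbs1 sites lie past the 3′ end at folds of -1.03 to -2.57, except for 1 at the start with a fold of 1.28, and the 4 Thbs2 sites lie before the start at -1.05 to -1.48.

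When sites were taken by position within 100 kb of a member instead of by name, the deposited tables held 17 further entries, each named for another gene. Near Thbs1 there were 6, all named for Gm13986 on the other side of the start. With blebbistatin without doxycycline 2 were lower, at log2 folds of -1.0 and -1.04. The latter, at chr2:118110188-118110557 (FDR 0.000913), lay just before the Thbs1 start at 118111876. With blebbistatin with doxycycline 3 were lower, at -1.0 to -1.25, and 1 was higher with doxycycline, at 1.34. Near Comp there were 5, all higher with doxycycline at 1.0 to 1.34 and named for Klhl26 or Upf1. Near Thbs3 there were 4, of which 3 were higher with doxycycline at 1.05 to 1.25 and 1 was lower with blebbistatin with doxycycline at -1.31. Near Thbs4 there were 2, named for Serinc5, lower with blebbistatin at -1.05 without doxycycline and -1.21 with it. No entry of this kind lay near Thbs2. The directions of these 17 entries were those of nearly all sites in their lists. Lower sites were 99.0% of those listed with blebbistatin without doxycycline and 99.8% with blebbistatin with doxycycline (1.77% and 8.73% of those tested). Higher sites were 95.8% of those listed with doxycycline (8.97% of those tested).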

How the data were processed

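Members and gene lists were chosen with earlier results of these data known. Per the submitters' processing notes, HISAT2, Picard, featureCounts and DESeq2 (RNA) and Bowtie2, SAMtools, MACS2, DiffBind and HOMER (chromatin) are the tools named, with build mm10; which tool served which step is partly inferred from the file headers. The RNA signal deposited by the authors is gene counts divided by 1 size factor per library: 100% of values were whole multiples of 1 step, within a tolerance of 0.1 steps, and gave back whole reads. Log2 fold changes, adjusted p-values and FDR values were also deposited, and the log2 group means of sites and the distance-to-start score are the authors', per the file headers.

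The filter kept genes whose normalised count averaged 10 or more in a table. They were tested by limma 3.58.1 (trend) on log2(normalised count + 1), with R 4.3.3, a scale that understates changes of low genes; the threshold was a Benjamini-Hochberg adjusted p of 0.05. For blebbistatin against Y27632, the recovered reads of all 9 libraries entered a quasi-likelihood test with TMM scaling in edgeR 4.0.16. edgeR on the recovered reads called 7949 genes for blebbistatin and 5367 for Y27632, against 7894 and 5328 by limma. Both were tested on counts simulated for blebbistatin against DMSO. Of 100 genes changed by 0.5 on the log2 scale, limma (14711 genes run) called 81 and edgeR (14769 genes run) 80. Of 100 changed by 2.3 each called 97. Among unchanged genes limma made 8 false calls and edgeR 6. Far fewer genes were changed than the 7894 called in the data, and the simulated spread came from the DMSO libraries. The fit of blebbistatin against Y27632 was not simulated. Named were the 5 members, the 2 highest and 2 lowest log2 changes per list and treatment, the 3 genes most like each member, and sites in several lists or largest per list; Cd47 was added as background. Of the genes most like Thbs1, 1 is not reported here. The labels do not say that replicate numbers pair the libraries, and the values could not decide it (see the closing section), so no block was used. Protein sequences, transcript lengths and strand were not used here.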

Additional observations from a re-analysis of the deposited data

How the results depend on the processing

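Of 15 member results (5 genes in 3 RNA comparisons), 10 passed the threshold, and in all 134 alternatives run on these 10 the direction and the call held. The alternatives were pseudocounts of 0.5 and 5, no filter, edgeR, DESeq2 1.42.0, joint scaling, the block, and leaving out each library, plus depth scaling by total reads without a composition factor, which was chosen after seeing the data and moved the median of all genes to 0.08 with blebbistatin. Leaving out 1 library gave Thbs1 -2.35 to -2.24 with blebbistatin and -0.46 to -0.36 with Y27632, Thbs2 0.66 to 0.71 and 0.40 to 0.46, and Comp 0.54 to 0.65 and 0.48 to 0.61 on the log2 scale. Thbs4 ran from -0.15 to -0.037 with blebbistatin and from 0.11 to 0.16 with Y27632. Thbs3 ran from 0.00 to 0.05 with blebbistatin and from -0.0442 to 0.0062 with Y27632, its sign turning without DMSO library 1. Between the inhibitors, Comp ran from -0.0093 to 0.13 (-0.0032 without Y27632 library 1); these signs turned in results that did not pass. The cause of these shifts was not tested beyond the smaller number of libraries. DESeq2 called 6631 genes with blebbistatin, 4109 with Y27632 and 6866 between them. Of the 15 endoplasmic reticulum folding genes, 13 to 15 fell with blebbistatin and 13 to 14 with Y27632 over the alternatives, and none rose, with medians of -0.57 to -0.47 and -0.25 to -0.20. The medians of the receptor list ran from -0.06 to 0.04 and from -0.04 to 0.01, and so changed sign; those of the partner list (-0.01 to 0.14) and protease list (-0.02 to 0.17) with blebbistatin, and of the type 1 repeat list with Y27632 (-0.13 to 0.02), also did. Taking sites by position within 100 kb gave 29 entries in place of 12, because it adds sites named for other genes; 9 of the 12 had an FDR under 0.01, and 4 of 5 overlapping pairs shared at least 50% of both sites.

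With the replicate number as a block, Thbs4 passed with blebbistatin at the same log2 change of -0.10 (limma adjusted p = 0.0346), and no other member's call changed. Called genes went from 7894 to 7604 with blebbistatin, from 5328 to 4633 with Y27632 and from 7990 to 7759 between them. Deviations of same-numbered libraries correlated at -0.206 to 0.087 over 9 pairs, and those of differently numbered libraries at -0.246 to 0.18. With 3 libraries per group, these values cannot decide whether same-numbered libraries shared an animal or a day. The labels do not state any such pairing. No pairing was therefore assumed, and site lists could not be blocked. Depth limits Comp most, with 244 to 589 reads per library, and Gm13986, with 25 to 69.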
